A study of Mus musculus with 5 samples.

Results

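The genes described here encode small leucine-rich proteoglycans: Aspn (asporin), Omd (osteomodulin, also called osteoadherin) and Ogn (osteoglycin, also called mimecan). They were taken by gene symbol from a list of 10 members of the family. A total of 5 of the 3373 probe sets in the deposited table carried these symbols, 2 for Aspn, 1 for Omd and 2 for Ogn. The other 7 genes of the list, Dcn, Bgn, Lum, Fmod, Prelp, Podn and Ecm2, were not analysed here, so their levels are unknown. Expression was measured on Affymetrix arrays in primary cultures of mesenchymal stem cells (MSC) purified from mouse bone marrow and grown in Mesencult medium. One group of 3 arrays held MSC alone. The other group of 2 arrays held MSC kept for 48 h in a transwell with purified T cells stimulated with antibodies to CD3 and CD28, in a ratio of 10 to each MSC. The membrane separates the cells and lets soluble products through. The labels name no genetic change in either group and give no strain, age or sex, and there is no group with resting T cells. The arrays are labelled as biological repetitions, without saying whether these were separate animals or cultures. P-values therefore measure the spread between these arrays, which may be partly technical.

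Small leucine-rich proteoglycans are secreted proteins built around a curved stack of leucine-rich repeats, most of them carrying chondroitin, dermatan or keratan sulfate chains. They bind collagen and set the diameter and spacing of its fibrils, and several of them hold TGF-beta or BMP ligands in the matrix. In bone and marrow stroma they are products of the mesenchymal lineage, where asporin and osteomodulin are known from mineralising tissue and osteoglycin was first isolated as a bone-associated factor.

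All the values below are log2 RMA summaries, so a step of 1 is a doubling, and RMA gives no call of presence or absence. The table itself appears to be chosen by this comparison: in 3373 of 3373 probe sets (100%) the arrays of the groups did not overlap, and limma called 100% of them, 51.3% lower and 48.7% higher, at an adjusted p under 0.05. The calls of the proteoglycan genes carry no weight beyond that background, and their levels and differences are given as descriptions. Array medians over the table lay between 7.42 and 7.64. In bulk RNA, fewer cells that express a gene and less of its RNA per cell cannot be told apart.

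Aspn, Omd and Ogn lie next to each other on mouse chromosome 13, all on the plus strand, in the order in which they are named here. Their upstream sequences are shown because the neighbouring genes fell together. RefSeq (build GRCm38.p6) gave 1 promoter for each of the 3 genes. The 250 bases before the annotated start are printed here 5′ to 3′, at chr13:49544193-49544442 for Aspn, chr13:49582212-49582461 for Omd and chr13:49607765-49608014 for Ogn. Capitals mark the longest stretch that each pair of the 3 sequences shares on the same strand.
Aspn: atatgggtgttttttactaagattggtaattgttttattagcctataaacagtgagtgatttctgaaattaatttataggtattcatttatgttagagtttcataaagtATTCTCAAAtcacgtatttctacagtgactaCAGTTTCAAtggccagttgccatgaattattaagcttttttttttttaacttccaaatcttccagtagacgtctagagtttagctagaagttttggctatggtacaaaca
Omd: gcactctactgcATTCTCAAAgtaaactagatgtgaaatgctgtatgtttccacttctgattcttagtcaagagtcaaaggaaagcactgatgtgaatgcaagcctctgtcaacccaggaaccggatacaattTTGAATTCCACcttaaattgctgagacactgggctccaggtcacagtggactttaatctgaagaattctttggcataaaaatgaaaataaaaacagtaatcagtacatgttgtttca
Ogn: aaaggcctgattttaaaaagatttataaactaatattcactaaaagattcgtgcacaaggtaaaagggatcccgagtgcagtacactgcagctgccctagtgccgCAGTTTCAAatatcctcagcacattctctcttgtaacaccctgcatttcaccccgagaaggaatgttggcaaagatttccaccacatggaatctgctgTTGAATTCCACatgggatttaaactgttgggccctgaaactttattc

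The longest stretch common to Omd and Ogn was TTGAATTCCAC, 11 bases long, which begins 117 bases before the start of Omd and 47 bases before that of Ogn. On either strand it occurred in 4 of the 32851 promoters of the same length (0.012%), those of Omd, Ogn, Pla2g4a and Serpinb1b. Aspn shared 9 bases with each of the others: ATTCTCAAA with Omd, found in 96 promoters, and CAGTTTCAA with Ogn, found in 83. These stretches were picked after the sequences were compared, and a shared run of letters is a description and not a binding site. All 3 windows were poor in G and C, at 30.0% for Aspn, 38.4% for Omd and 42.0% for Ogn, against a median of 52.4% over all promoters.

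Letters of elements bound by interferon-responsive, NF-kB, AP-1, SMAD, TEAD and RUNX factors, and of the TATA box, were searched on both strands of the same windows. The interferon element GAS (TTCNNNGAA), the IRF element (GAAANNGAA), an NF-kB form (GGGNNTTTC), the AP-1 site (TGANTCA) and the SMAD element (CAGAC) matched in none of the 3 promoters. Over all promoters these letters were held by 7.02%, 7.13%, 3.72%, 6.75% and 42.2%. Ogn alone held a TEAD element (GGAATG), 86 bases before its start, and a RUNX core (ACCACA), 65 bases before it; 12.6% and 14.0% of all promoters hold them. The TATA letters (TATAAA) occurred in Aspn at 207 and 178 bases before the start, and in Ogn, where the matches at 229 and 227 bases overlap on opposite strands. None of these TATA matches lies close to the annotated start. No match says only that these letters are not in this window.

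**Figure D1:**
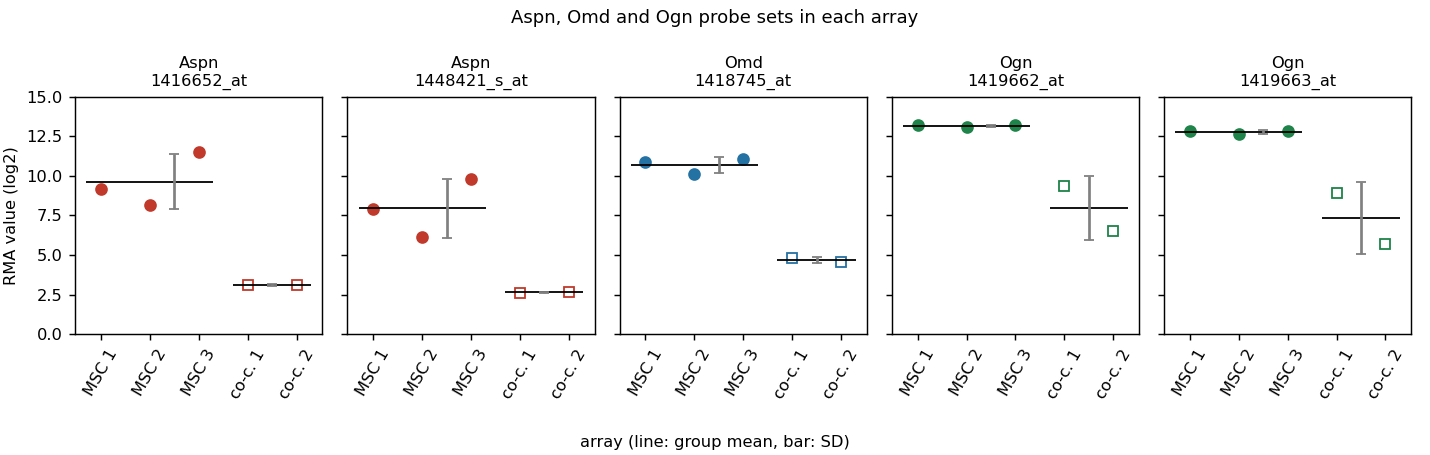
Log2 RMA value (y axis, from 0) of each of the 5 probe sets in each array (x axis), with filled circles for MSC alone and open squares for co-culture; black lines are group means and grey bars SD. Aspn is spread out in MSC alone and flat in co-culture, and Ogn is flat in MSC alone and spread out in co-culture.

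Aspn encodes asporin, which binds collagen and TGF-beta and limits the access of BMP2 to its receptor. Its brighter probe set (1416652_at) read 9.19, 8.13 and 11.53 in the MSC arrays (replicates 1 to 3, in this order throughout), against 3.13 and 3.08 in the co-culture arrays (replicate 1, then 2). The control arrays differed among themselves by up to 3.40, and the co-culture arrays by 0.05. Even so, the lowest control lay 4.99 above the higher co-culture array. The group means were 9.62 ± 1.74 (SD, n = 3) in MSC alone and 3.11 ± 0.04 (SD, n = 2) in co-culture. On the log2 scale Aspn fell by 6.51 with an SE of 0.92, a 91.1-fold fall (limma, adjusted p 0.00329). With all 5 arrays this was the largest fall of the 3373 probe sets; without MSC replicate 3 it fell by 5.55, less than Omd, which then fell by 5.84. MSC replicate 3 set much of its size: leaving it out gave a 47.0-fold fall, and leaving out MSC replicate 2 a 153-fold one.

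The dimmer Aspn probe set (1448421_s_at), whose suffix marks probes that may bind related transcripts, read 7.89, 6.11 and 9.81 in the MSC arrays against 2.62 and 2.67 in co-culture. It kept the same order of the MSC arrays, with replicate 3 highest and replicate 2 lowest. It fell 39.2-fold, or 20.5-fold without MSC replicate 3 and 73.8-fold without MSC replicate 2. In each co-culture array its value was the lowest of all probe sets in the table, and 0.326% of the table lay at or under the brighter probe set there. The probe sets stood 1.30 to 2.02 apart in the MSC arrays and only 0.41 and 0.52 apart in co-culture. Values this low in RMA are compressed, so the floor of the scale and the fall of the transcript cannot be told apart, and the folds of Aspn have no firm upper end.

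Omd encodes a keratan sulfate proteoglycan of bone matrix that binds hydroxyapatite and osteoblast integrin. Its single probe set (1418745_at) read 10.87, 10.13 and 11.03 in the MSC arrays against 4.79 and 4.53 in co-culture. It had the smallest SE of the 3 genes, with the lowest control 5.34 above the higher co-culture array. Its mean was 10.68 ± 0.48 (SD, n = 3) in MSC alone and 4.66 ± 0.19 (SD, n = 2) in co-culture. Omd thus fell by 6.02 ± 0.31 (SE), which is 64.7-fold (limma, adjusted p 0.000228), and ranked 3 in the table by size of fall. Taking each co-culture array alone against the control mean gave 59.1-fold and 70.9-fold, and leaving out any 1 array kept the fall between 57.2-fold and 78.2-fold. In co-culture 9.07% and 7.92% of the table lay at or under Omd, so it was low there without being at the bottom of the scale.

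Ogn encodes osteoglycin, which regulates collagen fibril assembly and was first described in bone. Its brighter probe set (1419662_at) read 13.18, 13.11 and 13.23 in the MSC arrays, close to the highest value of the table (14.59). In co-culture it read 9.39 in replicate 1 and 6.53 in replicate 2. The controls agreed within 0.12, while the co-culture arrays stood 2.86 apart. Means were 13.17 ± 0.06 (SD, n = 3) in MSC alone and 7.96 ± 2.02 (SD, n = 2) in co-culture, so that Ogn fell by 5.21 ± 0.76 (SE) or 37.1-fold (limma, adjusted p 0.00338). The fold is an average of unequal arrays: co-culture replicate 1 was 13.8-fold and co-culture replicate 2 100.1-fold below the control mean.

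The other Ogn probe set (1419663_at) read 12.83, 12.61 and 12.85 in the MSC arrays against 8.92 and 5.71 in co-culture. It fell 43.8-fold, with replicate 1 14.4-fold and replicate 2 133-fold below the control mean. The probe sets differed by 0.35 to 0.50 in the MSC arrays and by 0.47 and 0.82 in co-culture, so the gap between the co-culture arrays was present in both. In co-culture replicate 1, 78.7% of the table still lay at or under the brighter Ogn probe set, and 35.9% in replicate 2.

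All 5 probe sets were called lower, where 51.3% of the table was called lower and 100% in either direction. With all arrays they ranked 1, 3, 5, 8 and 10 by size of fall. Falls of this size were not particular to them. Ranks 2, 4, 7 and 9 were probe sets of the collagen genes Col3a1, Col11a1, Col5a2 and Col1a2, and rank 6 was Mgp. The proteoglycan ranks moved when single arrays were left out. The brighter Aspn probe set ranked 3 without MSC replicate 3 and 5 without co-culture replicate 1. Without co-culture replicate 2 the Ogn probe sets ranked 25 and 27. An exact permutation test over the arrays has 10 splits. With its smaller tail doubled (two-sided) it cannot go below 0.2, the value that each of the 5 probe sets gave. The groups did not overlap in 100% of the table, so this value was fixed in advance for every probe set. With p-values adjusted for a number of tests 15 times larger, 6.23% of the table was called lower, with Omd (adjusted p 0.00343) and the brighter Aspn probe set (adjusted p 0.0494) among them. The other Aspn probe set had an adjusted p of 0.0802 in limma under that setting, and those of Ogn 0.0507 and 0.0571.

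**Figure D2:**
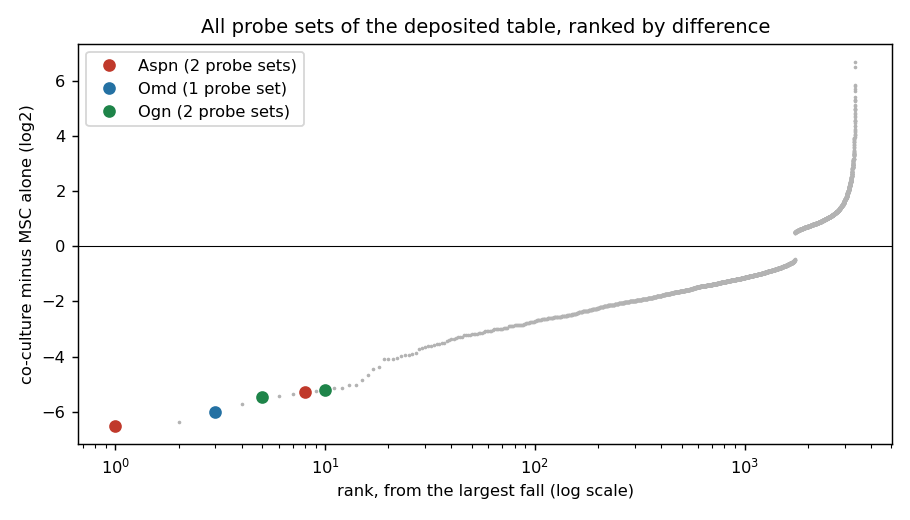
Co-culture minus MSC alone (y axis, log2) of all 3373 probe sets of the table against their rank from the largest fall (x axis, log scale), with the probe sets of Aspn, Omd and Ogn in colour. With all arrays, all 5 lie among the 10 largest falls, beside probe sets of collagen genes and Mgp, and no probe set of the table lies near 0.

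The genes differed in where their spread lay. The MSC range of the dimmer Aspn probe set, 3.70, was the widest of the 3373 probe sets, and that of the brighter one ranked 3, against a median of 0.40. In co-culture the widest gaps of the table, 3.21 and 2.86, were those of the Ogn probe sets, against a median of 0.33. Conversely, 3048 and 3060 probe sets had a co-culture gap at least as wide as those of Aspn, and 3109 and 2496 had an MSC range at least as wide as those of Ogn. For Omd the values were 0.90 and 0.26, and 385 and 1973 probe sets were at least as wide. The group SD of each gene rests on 2 or 3 arrays. The SE given for each brightest probe set shares spread between probe sets. Without that sharing it was 1.295 for Aspn, 0.372 for Omd and 1.068 for Ogn. The adjusted p was then 0.0322, 0.0148 and 0.0331 in limma's linear model.

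The order of the arrays was shared. MSC replicate 3 was the highest and MSC replicate 2 the lowest control in all 5 probe sets, although in Ogn they were only 0.12 and 0.24 apart. Of the 1731 probe sets that were lower in co-culture, replicate 3 was the highest control in 48.3% and replicate 2 the lowest in 53%. Co-culture replicate 2 was the lower of the co-culture arrays in Omd, both Ogn probe sets and the brighter Aspn probe set, and in 77.5% of the lower probe sets. Each of these positions was thus the commonest one among the lower probe sets; the exception was the dimmer Aspn probe set, where co-culture replicate 1 was lower by 0.05. The part of single arrays in the result was not tested beyond leaving each out.

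**Figure D3:**
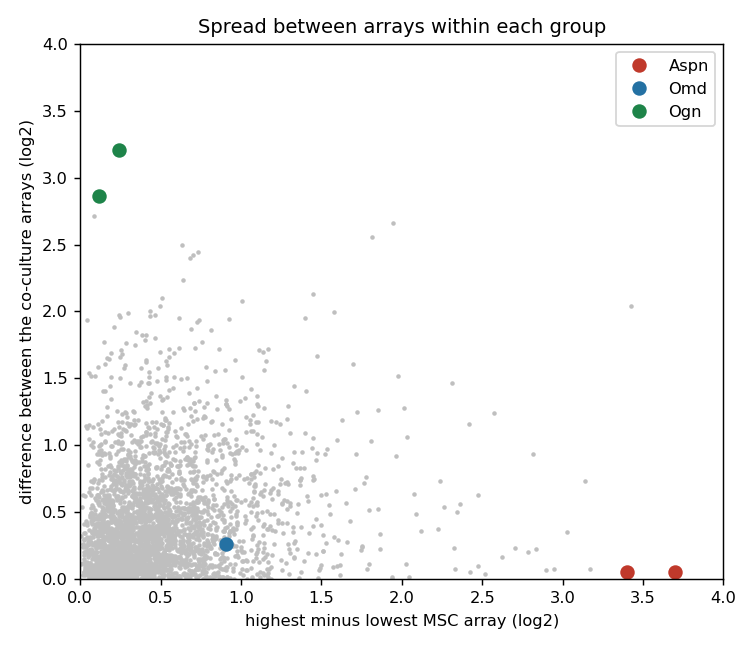
Spread of every probe set within the groups: highest minus lowest MSC array (x axis, log2) against the difference between the co-culture arrays (y axis, log2), with grey points for the table and coloured points for Aspn, Omd and Ogn. The Aspn points lie at the far right, at 3.40 and 3.70, and the Ogn points at the top, at 2.86 and 3.21.

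The fall did not extend to the measured gene on the far side of the cluster. In the RefSeq annotation Ecm2, another family member, precedes Aspn, and Nol8, encoding a nucleolar protein, follows Ogn. The annotated span of Cenpp, a centromere protein gene, contains Aspn, Omd and Ogn. Of 18 protein-coding genes within 500 kb of the cluster 4 were measured, namely the proteoglycans and Nol8, and 14, among them Ecm2 and Cenpp, were not analysed here. Nol8 was higher in co-culture: its brightest probe set (1428950_s_at) read 7.23, 7.27 and 6.96 in the MSC arrays against 8.15 and 8.20 in co-culture. It rose by 1.03 ± 0.18 (SE), with an adjusted p of 0.00501 in limma, and its other probe sets rose by 1.30 and 1.15.

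Genes that are neighbours often moved the same way in this table. Of 303 pairs of adjacent protein-coding genes with both members measured, 112 were both lower, 89 both higher and 102 opposite. Thus 66.3% shared a direction, in a table where 51.7% of genes were lower and 48.3% higher. Pairs of related genes, such as Col6a2 with Col6a1, were counted in. The share that unrelated genes would give was not computed. By the brightest probe set of each gene, 5 of the pairs were both lower by at least 4-fold. Of these, 2 were both lower by at least 16-fold, Aspn with Omd and Omd with Ogn. The other 3 were pairs of collagen genes or of a collagen gene with its neighbour: Gulp1 with Col3a1, Col3a1 with Col5a2, and Col6a2 with Col6a1. This depends on the probe sets used. In their other probe sets Col3a1 fell 81.6-fold and Col5a2 40.8-fold, which would put that pair past 16-fold as well. Among 59 runs of 3 adjacent measured genes, 19 were all lower, and in 2 of these every gene was lower by at least 4-fold. These were Aspn, Omd and Ogn, with a smallest fall of 5.21 on the log2 scale, and Gulp1, Col3a1 and Col5a2. In the latter run the least change was -3.01, that of the brightest Col5a2 probe set. The proteoglycan genes were chosen with their falls known, so this is a description.

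**Figure D4:**
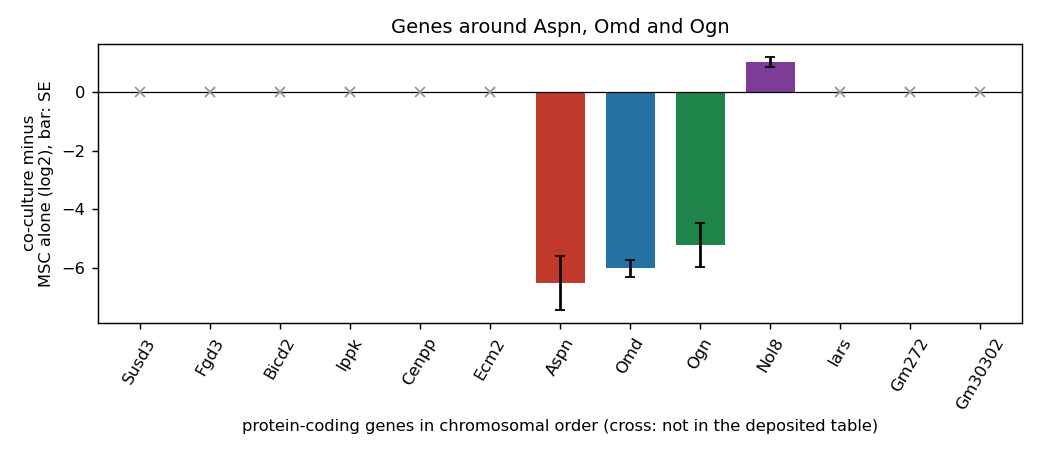
Co-culture minus MSC alone (y axis, log2, bars are SE) for protein-coding genes in chromosomal order (x axis), with the brightest probe set of each gene and crosses for genes outside the table. Aspn, Omd and Ogn fell by between 5.21 and 6.51, and Nol8 beside them rose by 1.03.

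The genes whose pattern came closest were found by Euclidean distance over the 5 arrays, after subtracting each probe set's MSC mean. For Aspn these were Mgp (distance 1.72), whose product matrix Gla protein restrains calcification, Ndnf (2.02), encoding a secreted factor, and Thbs2 (2.65), encoding thrombospondin-2. All of them shared with Aspn a high MSC replicate 3, at 13.79 against 10.90 and 10.66 for Mgp, at 11.20 against 8.55 and 8.25 for Ndnf and at 12.56 against 9.19 and 9.14 for Thbs2. With all arrays Mgp fell by 5.42, Ndnf fell by 5.14 and Thbs2 fell by 5.04; leaving out that array, Mgp fell by 4.41, Ndnf fell by 4.20 and Thbs2 fell by 3.91. With co-culture replicate 1 left out Thbs2 fell by 6.06, and with replicate 2 left out it fell by 4.02. Without sharing of the spread between probe sets its adjusted p was 0.0555 in limma's linear model. Its lowest adjusted p, 0.00107 in limma, came with the replicate number as a block, where MSC replicate 3 adds nothing to the difference. Without MSC replicate 1 it was 0.0233 in limma.

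For Ogn the closest genes were Rspo2 (distance 1.16), a secreted enhancer of Wnt signalling, Col11a1 (1.29) and Col3a1 (1.92). Both Rspo2 and Col11a1 repeated the gap between the co-culture arrays, at 5.65 and 4.33 for Rspo2 and at 6.31 and 4.37 for Col11a1. Leaving out co-culture replicate 1, Rspo2 fell by 5.68 and Col11a1 fell by 5.82. Leaving out co-culture replicate 2, Rspo2 fell by 4.37 and Col11a1 fell by 3.87. For Omd the same genes were closest, Rspo2 (1.63), Col3a1 (1.96) and Col11a1 (2.16). Each proteoglycan lay closer to at least 1 of these genes than to either of its neighbours: Omd lay 2.04 from Aspn and 2.24 from Ogn, and Aspn and Ogn were 3.60 apart. Distances of this kind favour genes with falls of like size.

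Fibrillar collagens, which the proteoglycans coat, were lower in all 6 of the 9 listed genes that were measured, where 51.7% of all 2190 genes were called lower. Their median difference was -3.48 on the log2 scale, against -0.61 over all genes, which mixes both directions. The probe set ranked 866 of the 1731 lower ones stood at -1.234. Col3a1, a collagen of soft connective tissue and marrow, fell by 4.67 ± 0.24 (SE), with means of 13.77 ± 0.27 (SD, n = 3) in MSC alone and 9.10 ± 0.30 (SD, n = 2) in co-culture. Col11a1, which nucleates fibrils, fell by 4.85 ± 0.66, and Col1a1, the main chain of bone collagen, fell by 3.94 ± 0.27. Without co-culture replicate 2 Col11a1 fell by 3.87, and without replicate 1 it fell by 5.82. Col5a2, Col5a1 and Col1a2 fell by 3.01, 2.64 and 2.02. Probe sets of one gene differed, most of all for Col1a2, where the brightest fell by 2.02 and another fell by 5.26. In all 6 collagen genes the brightest probe set was the least changed one. Their most changed probe sets lay between -6.351 (Col3a1) and -4.033 (Col5a1). By the brightest probe set of each gene, the median difference of the 3 proteoglycans was -6.02. The other probe sets of Aspn and Ogn stood at -5.292 and -5.453. How far the proteoglycan and collagen medians lie apart therefore depends on the probe sets used.

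Ligands and receptors that the family binds were measured in part. Of the 22 listed genes of the TGF-beta and BMP system 6 were in the table. All 6 were lower, where 51.7% of all genes were called lower. Their median was -1.42, against -0.61 over all genes, which mixes both directions. The probe set ranked 866 of the 1731 lower ones stood at -1.234, so the falls of this list were near those of lower probe sets in general. The ligand genes Tgfb3 and Tgfb2 fell by 2.41 ± 0.34 and 2.09 ± 0.37 (SE), and Ltbp1, whose product stores latent TGF-beta in the matrix, fell by 1.46 ± 0.21. Bmpr2, the type II BMP receptor gene, fell by 1.37 ± 0.24. Bmpr1a and Ltbp4 fell by 0.59 and 0.56; their calls were lost without MSC replicate 2 for Bmpr1a (adjusted p 0.057 in limma) and without MSC replicate 1 for Ltbp4 (adjusted p 0.0541 in limma), and for both with the arrays centred on their medians (0.0521 and 0.0588).

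Proteoglycans outside the family had differences of smaller size than Aspn, Omd and Ogn. Of 23 listed 6 were measured, 5 lower and 1 higher (51.7% of all genes were called lower), with a median of -1.46. Gpc6, a glypican, fell by 2.15 ± 0.26 (SE) and Vcan, the large chondroitin sulfate proteoglycan versican, fell by 2.01 ± 0.31. The syndecan genes Sdc2 and Sdc1 fell by 1.46 and 1.45, and Hspg2, encoding the basement membrane proteoglycan perlecan, fell by 1.14. Agrn, encoding agrin, rose by 0.77 ± 0.19. Among the 5 probe sets of Gpc6 the least changed fell by 0.66 and the most changed fell by 4.08. The value given for Sdc2 was that of the least changed of its 3 probe sets, and the others fell by 2.90 and 3.35.

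Enzymes that build and sulfate glycosaminoglycan chains were lower in 5 of 5 measured genes, in a table where 51.7% of genes were called lower and every gene in 1 direction or the other, while 28 others on the list of 33 were not analysed here. Dsel, an epimerase gene of dermatan sulfate synthesis, fell by 1.82 ± 0.36 (SE). Csgalnact1 and Chsy1, which start and extend chondroitin chains, fell by 1.52 ± 0.18 and 0.85 ± 0.22. Chst12, a chondroitin sulfotransferase gene, fell by 1.58 ± 0.28, and Chst1, whose product sulfates keratan, the chain carried by osteomodulin, fell by 1.21 ± 0.22.

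Proteinases and their helpers were lower in 3 of 3 measured genes of 17 listed, against 51.7% of all genes called lower. Adamts5 and Adamts4, aggrecanases that can also cut small proteoglycans, fell by 2.69 ± 0.43 and 2.04 ± 0.41 (SE). If co-culture replicate 1 was left out, Adamts5 fell by 3.42, and if replicate 2 was left out, it fell by 1.96. Pcolce, which encodes an enhancer of procollagen cleavage and no proteinase, fell by 1.47 ± 0.25. Of 15 mineralisation and osteoblast genes 2 were measured, Mgp (above) and Sparc, encoding osteonectin, which fell by 2.11 ± 0.33.

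Receptors reported for soluble decorin and biglycan, which are no receptors of Aspn, Omd or Ogn by the list, went both ways in the 5 measured genes of 10. Egfr rose by 1.59 ± 0.25 (SE) and P2rx4, a purinergic receptor gene, rose by 0.75 ± 0.21. Met, Cd44 and Igf1r fell by 0.90 ± 0.23, 0.86 ± 0.21 and 0.51 ± 0.17. The call of P2rx4 was lost without co-culture replicate 1 (adjusted p 0.0599 in limma), and that of Igf1r without MSC replicate 1 (0.0855), without MSC replicate 2 (0.0641), without co-culture replicate 2 (0.0718) and with the arrays centred on their medians (0.0821). The 8 further family members of the lists, among them Kera, Epyc, Chad and again Ecm2, were not analysed here.

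**Figure D5:**
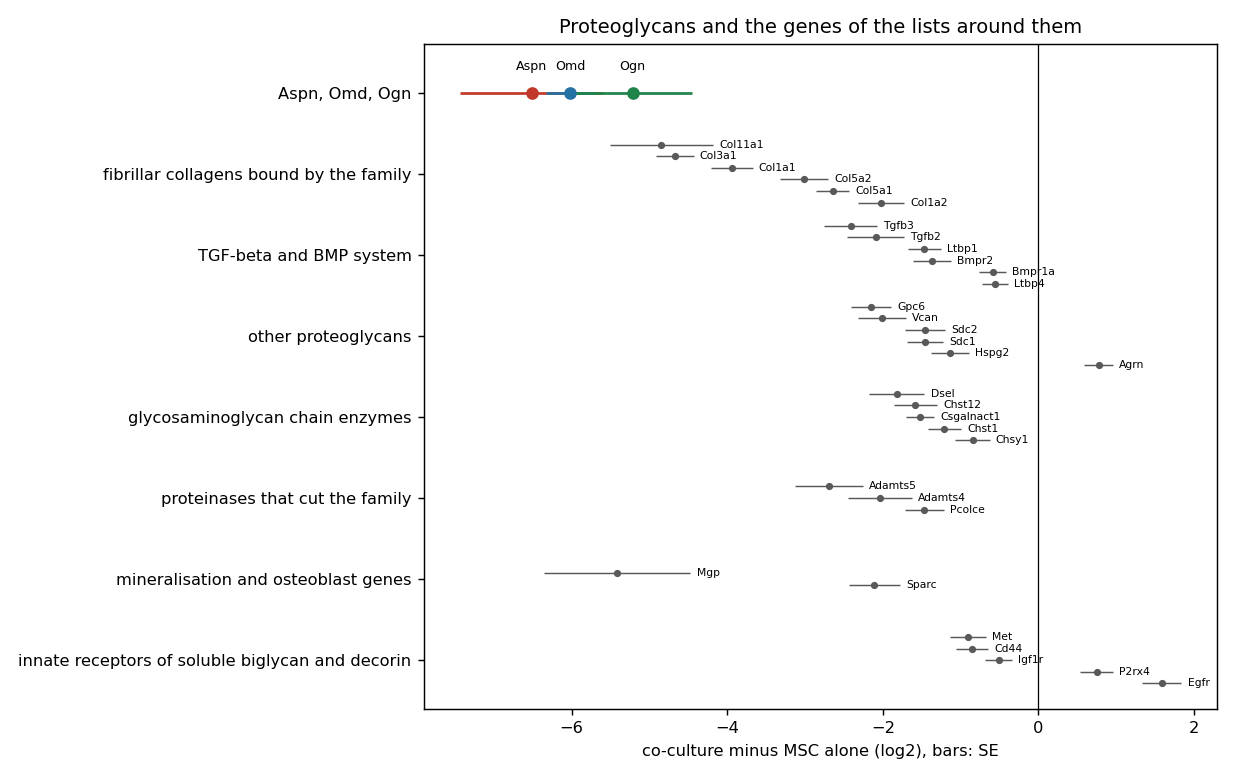
Co-culture minus MSC alone (x axis, log2, bars are SE) for Aspn, Omd and Ogn and for each measured gene of the lists (y axis), with 1 probe set a gene. The proteoglycans lie between -6.51 and -5.21, Mgp among them at -5.42, and Agrn, P2rx4 and Egfr lie to the right of 0.

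Markers of the cultured cells were checked against the label. Of 11 MSC markers 5 were measured, in a table where 51.7% of genes were called lower and 48.3% higher. Vcam1 and Pdgfra were higher in co-culture, by 2.91 ± 0.19 and 3.77 ± 0.70 (SE; 3.08 for Pdgfra without MSC replicate 3), and Cxcl12, Pdgfrb and Cd44 fell by 3.52 ± 0.55, 2.55 ± 0.44 and 0.86 ± 0.21. If co-culture replicate 1 was left out, Pdgfrb fell by 3.19, and if replicate 2 was left out, it fell by 1.92. Of 10 macrophage markers 2 were measured, Mpeg1 and Ctss. They rose by 4.48 ± 0.26 and 2.89 ± 0.29 from low means of 4.64 and 3.36 in MSC alone. The other 8 were not analysed here, so their levels are unknown. Of the 20 T cell, endothelial and adipocyte markers 0 were in the table. The table appears to hold only probe sets that differ between the groups, so this does not say whether those cells were present. The part of other cells in the fall of the proteoglycans was not tested.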

How the data were processed

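RNA was measured on 5 Affymetrix arrays, 3 of MSC alone and 2 of the co-culture, grouped by sample title. The authors deposited log2 values for 3373 probe sets, summarised by RMA according to the submitters' processing notes, with no version; the rule that chose these probe sets was not found. RMA normalises by quantiles and compresses low values. The platform's annotation gave 1 symbol for 3013 probe sets, several for 69 and none for 291. Where 1 value a gene was needed, the brightest probe set on average was used.

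The test was limma (version 3.58.1, R 4.3.3), two-sided, with all 5 arrays in 1 fit, no covariates, Benjamini-Hochberg adjustment over all probe sets and a threshold of 0.05. It was tested on simulated data with the same spread in every probe set. The spreads of this table are unequal, so that was no test of the SE of single genes. SE is limma's moderated standard error of a difference. A table selected on the same arrays would favour large differences and small spreads. The number of arrays limits the precision.

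Named were all members of the family, up to 6 genes of each of 8 lists, measured genes within 500 kb, and the 3 genes closest in pattern to each member. Gulp1, Col6a2, Col6a1, Pla2g4a and Serpinb1b were named after their values or sequences were seen. Members and lists were chosen with earlier results of these data known. Alternatives left out each array, blocked the replicate number, changed the spread, scaling, array weights, low-value filter, number of tests or probe sets used. Neighbours and promoters came from RefSeq (GRCm38.p6).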

Additional observations from a re-analysis of the deposited data

How the results depend on the processing

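In all 59 alternative values of the 5 proteoglycan probe sets co-culture was lower, and 56 had an adjusted p under 0.05; the 3 exceptions came from adjusting for a number of tests 15 times larger, which left 2 of the 5 called and 415 of the 3373 in the table. Taking 1 probe set a gene left 3 called, by construction. Leaving out each array in turn kept all 5 called, and between 3116 and 3371 probe sets of the table; with 1 co-culture array left, that array is assumed to vary like the others. Among the 50 single probe sets recomputed, no direction turned under any alternative. For these and for the proteoglycans the direction was fixed in advance, so its constancy is no support. In every probe set of the table the groups stood at least 0.34 apart, more than the array medians differed. Leaving out, blocking, weighting or centring arrays could therefore not turn it. The calls, too, started from a table in which every probe set was called. Co-culture array medians stood on average at -0.16 from those of MSC alone on the log2 scale; with the arrays centred on their medians 1673 probe sets were called lower and 1642 higher.

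The replicate numbers are shared by the groups, and the labels do not say that a number marks a common origin. Over probe sets the deviations from the group means correlated at 0.22 for number 1 and 0.32 for number 2. MSC replicate 3, which shares no number with a co-culture array, correlated at 0.11 with co-culture replicate 1 and -0.11 with replicate 2. The deviations of the 2 co-culture arrays mirror each other, so these values are not independent. They are at most a weak hint from the data and not from the design. With the replicate number as a block, MSC replicate 3 has no partner and adds nothing to the difference: 3365 probe sets and all 5 of the proteoglycans were called, and Aspn fell by 5.55, Omd fell by 5.84 and Ogn fell by 5.19.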
